A study of Mus musculus with 8 samples.

Results

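The glutathione transferases, UDP-glycosyltransferases and sulfotransferases of the mouse kidney were compared between control and SIK mutant mice. Members were the protein-coding genes named as cytosolic glutathione transferases (GST), microsomal glutathione transferases (MGST), UDP-glycosyltransferases (UGT) or sulfotransferases (SULT) whose mean expected count over all kidneys was at least 10. There were 37 such genes among the 55401 genes measured: 17 GST of 22 by name, 2 MGST of 3, 13 UGT of 21 and 5 SULT of 21. The rule used names and mean counts, not a difference between groups, but it was set with earlier results of these data known. The other 30 genes by name were under the count minimum, and 15 of them had no read in any kidney, including most SULT2A genes and both SULT3A genes. All 37 members passed the filter on low counts in both comparisons below, and 32 of them were above 1 CPM (read counts put on 1 scale across libraries by TMM factors) in every kidney.

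RNA-Seq was performed on 8 whole kidneys. The 4 control (Ctrl) mice carried floxed alleles of the salt-inducible kinase (SIK) genes, labelled SIK1f/f, SIK2f/f and SIK3f/f, without Cre recombinase. The 4 SIK mutant (KO) mice carried the same floxed alleles with Six2-Cre, so floxed alleles were common to both groups. The study's text describes the surviving mutants as heterozygous for floxed *Sik1*, where the labels name both alleles, and the group is therefore called SIK mutant. Six2-Cre is active in the progenitors of the nephron and their tubular descendants, and stromal and blood cells of the same kidneys keep their SIK genes. No treatment, time point, age, sex, litter or batch is given in the labels. *Sik3* was measured at 58.5, 66.4, 65.5 and 60.9 CPM in the controls and at 41.3, 39.6, 43.0 and 33.6 CPM in the mutants, with no overlap. The ranges of *Sik2* overlapped (7.95 to 9.93 and 4.49 to 9.28 CPM). *Sik1* was at 36.7 to 43.0 CPM in controls and 43.3 to 54.0 CPM in mutants, so its level was not lower in the kidneys labelled as mutant. Gene-level counts do not tell which exons were read.

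Phase II conjugation joins a small, polar group to a drug, a hormone or a product of metabolism and makes it easier to excrete. GST enzymes add glutathione, UGT enzymes add a sugar taken from a UDP-sugar, and SULT enzymes add sulfate from the activated donor PAPS. The kidney proximal tubule is a major site of this chemistry outside the liver, and it also secretes the conjugates into urine. In mice, several of these genes are known to differ between males and females.

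The kidneys fell into separate sets that the labels do not name. Controls 3 and 4 had 0 and 2 counts over 4 Y-linked genes (*Uty*, *Kdm5d*, *Eif2s3y* and *Ddx3y*) and *Xist* at 260 and 297 CPM, whereas controls 1 and 2 and all 4 mutants had 789 to 1064 Y-linked counts and *Xist* at no more than 0.493 CPM. Sex is not in the labels, and no mutant kidney resembled controls 3 and 4 in these genes, so every comparison is given over all 8 kidneys and again over controls 1 and 2 against the 4 mutants, called the 6 kidneys. Depth was 10179648 to 10925100 expected counts per kidney, of which the 37 members took 0.463% to 0.524%. Markers of the labelled tissue were abundant: the 5 proximal tubule markers summed to 8981 to 11849 CPM in controls and 8634 to 10399 CPM in mutants. Hepatocyte markers, of another organ rich in conjugation enzymes, were low (6 genes, 20.1 to 36.9 CPM summed in controls and 24.4 to 38.9 CPM in mutants). Adipocyte markers differed among the kidneys: *Adipoq*, *Cfd*, *Plin1*, *Cidec* and *Lep* summed to 0 and 2.76 CPM in controls 1 and 2, 132 and 26.5 CPM in controls 3 and 4, and 90.9 to 147 CPM in the mutants. *Adipoq* and *Plin1*, which define fat cells, were at 0 in control 1. Their part in the results below was not tested. In whole-kidney RNA, fewer cells of a type and less RNA per cell cannot be told apart.

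Promoters of 6 UGT genes from the loci with the widest gaps among kidneys are shown first, as 250 bases before the RefSeq start on GRCm38.p6. *Ugt2b38*, *Ugt2b37* and *Ugt2b5* lie in the *Ugt2b* cluster of chromosome 5, and the windows are shown because *Ugt2b38* was the member past the adjusted threshold over the 6 kidneys. The capitals mark the longest run that all 3 windows share, 62 bases.
Ugt2b38, chr5:87424204-87424453, minus strand: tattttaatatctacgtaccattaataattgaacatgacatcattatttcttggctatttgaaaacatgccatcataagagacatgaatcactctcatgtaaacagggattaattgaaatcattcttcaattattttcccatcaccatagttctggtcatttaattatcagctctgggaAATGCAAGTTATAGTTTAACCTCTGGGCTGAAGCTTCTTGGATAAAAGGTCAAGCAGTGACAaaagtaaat
Ugt2b37, chr5:87254789-87255038, minus strand: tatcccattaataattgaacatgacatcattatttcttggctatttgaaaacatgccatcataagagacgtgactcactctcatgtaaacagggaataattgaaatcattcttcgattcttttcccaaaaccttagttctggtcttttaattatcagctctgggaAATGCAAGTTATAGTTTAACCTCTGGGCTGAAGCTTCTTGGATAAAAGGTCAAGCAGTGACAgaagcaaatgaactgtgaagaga
Ugt2b5, chr5:87140341-87140590, minus strand: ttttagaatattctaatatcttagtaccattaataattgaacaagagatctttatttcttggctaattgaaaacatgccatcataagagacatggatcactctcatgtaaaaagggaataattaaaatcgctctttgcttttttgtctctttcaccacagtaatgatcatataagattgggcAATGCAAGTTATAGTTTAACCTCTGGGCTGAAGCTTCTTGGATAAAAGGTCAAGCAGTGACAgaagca

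The window of *Ugt2b38* was 95.3% identical to that of *Ugt2b37* over 232 aligned columns and 85.4% identical to that of *Ugt2b5* over 247 columns. The levels of these near neighbours were far apart all the same: their mean TPM (RSEM's level per transcript length) over 8 kidneys was 266 for *Ugt2b38*, 12.5 for *Ugt2b37* and 0.701 for *Ugt2b5*.

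The second set comes from the *Ugt1a* locus of chromosome 1, where each gene has a first exon and start site of its own and shares the remaining exons. *Ugt1a10* and *Ugt1a9* were lower, and *Ugt1a2* higher, in controls 3 and 4 than in the other kidneys. The capitals mark the letters GTTAAT on either strand, which occur in the windows of several members.
Ugt1a10, chr1:88055161-88055410, plus strand: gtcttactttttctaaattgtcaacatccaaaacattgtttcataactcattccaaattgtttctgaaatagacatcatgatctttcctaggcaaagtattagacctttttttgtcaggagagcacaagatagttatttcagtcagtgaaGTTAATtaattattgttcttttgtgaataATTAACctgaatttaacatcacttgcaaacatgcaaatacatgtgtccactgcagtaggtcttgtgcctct
Ugt1a9, chr1:88070529-88070778, plus strand: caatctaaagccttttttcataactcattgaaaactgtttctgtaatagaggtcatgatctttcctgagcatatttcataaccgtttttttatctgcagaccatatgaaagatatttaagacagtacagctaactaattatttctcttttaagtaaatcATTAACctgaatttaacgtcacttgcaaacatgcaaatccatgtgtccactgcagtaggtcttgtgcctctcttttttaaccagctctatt
Ugt1a2, chr1:88200361-88200610, plus strand: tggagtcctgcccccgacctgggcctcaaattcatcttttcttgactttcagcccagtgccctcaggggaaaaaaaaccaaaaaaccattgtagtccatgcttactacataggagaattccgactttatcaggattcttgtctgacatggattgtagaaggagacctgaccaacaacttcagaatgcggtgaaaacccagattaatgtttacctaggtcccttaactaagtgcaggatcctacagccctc

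The windows of *Ugt1a10* and *Ugt1a9* were 81.6% identical over 228 columns, and that of *Ugt1a2* holds no GTTAAT. Of 33 members with a promoter in the table, 8 held GTTAAT on either strand (*Gsta3*, *Sult1a1*, *Sult1d1*, *Ugt1a1*, *Ugt1a10*, *Ugt1a6a*, *Ugt1a9* and *Ugt3a1*), against 6.43% of 32851 promoters of the same length. The core of the antioxidant response element, TGACNNNGC, was in 4 members (10.2% of all promoters), the STAT core TTCNNNGAA in 2 (7.02%) and the cyclic AMP response element TGACGTCA in 0 (1.55%). Both strands were searched; the antioxidant and cyclic AMP motifs both begin with TGAC but cannot share that start. A member was counted if any of its RefSeq promoters matched, whereas the percentages are of single promoters. The units therefore differ, and a member with several starts had more chances to match. A match is only a description of the letters in the window.

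Levels per transcript length were compared between members as mean TPM over the 8 kidneys. *Gstm1*, a mu-class GST, was the most abundant at 772 TPM. *Ugt3a2*, of a UGT family that uses sugars other than glucuronic acid, followed at 468 TPM. *Gstp1*, of the pi class, was at 423 TPM, *Gsta2*, of the alpha class, at 366 TPM, and *Ugt2b38*, of the steroid- and bile acid-conjugating UGT2B family, at 266 TPM. The most abundant SULT gene was *Sult1d1*, which sulfates catecholamines, at 132 TPM, and the MGST genes *Mgst3* and *Mgst1* were at 121 and 96.4 TPM. The lowest members were *Sult2b1* (1.93 TPM) and *Ugt2b5* (0.701 TPM). Summed over the 37 members, TPM was 4004 to 4982 in controls and 4138 to 4521 in mutants, with the mutants inside the range of the controls. GST genes held most of this sum in every kidney (2181 to 3507 TPM in controls, 2506 to 2872 TPM in mutants).

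**Figure D1:**
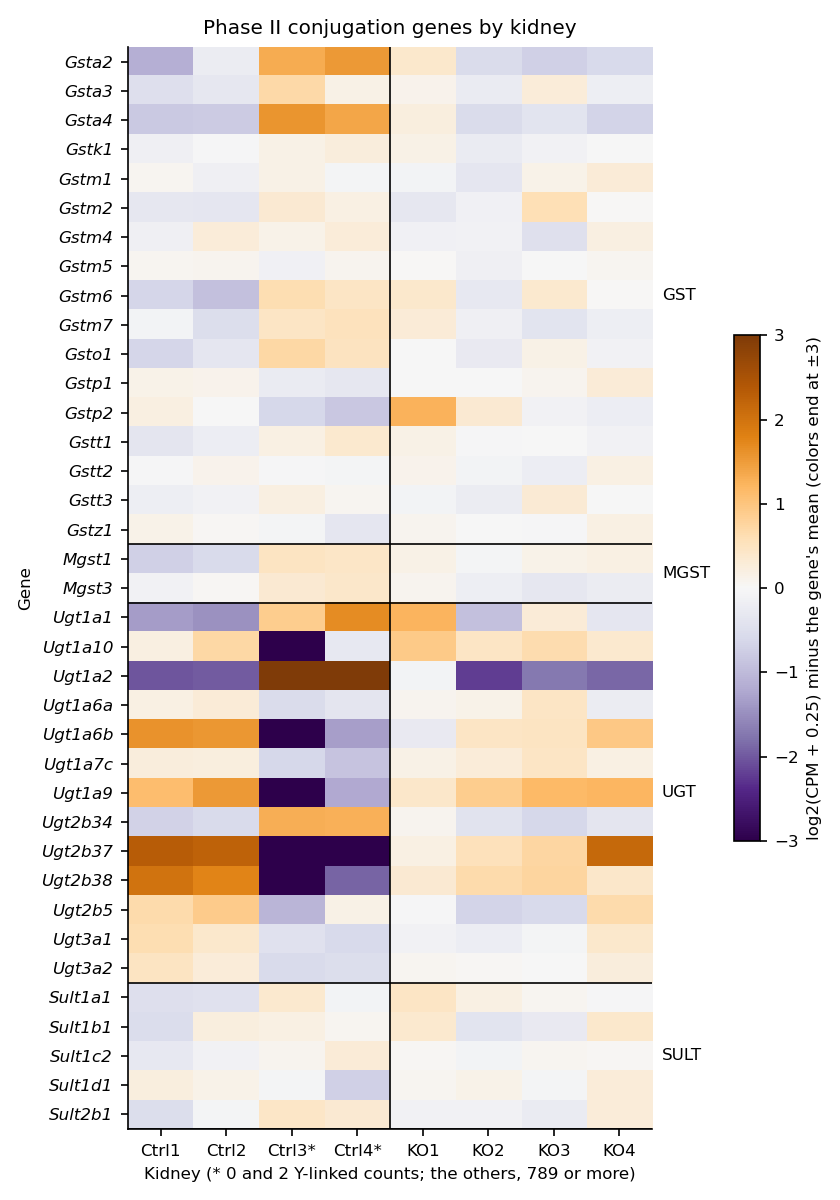
Level of each of the 37 members in each kidney, as log2(CPM + 0.25) minus the gene's mean over the 8 kidneys, grouped by family, with controls left of the vertical line and SIK mutants right of it. Controls 3 and 4 (asterisks) stand apart from the other 6 kidneys in 26 members, with the widest gaps in UGT genes, among them *Ugt1a2* at 743 and 938 CPM and *Ugt2b38* at 15.2 and 68.9 CPM.

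Over all 8 kidneys, no conjugation gene passed a false discovery rate (FDR) of 0.05 in edgeR's quasi-likelihood test with Benjamini-Hochberg adjustment, and 0 of the 14326 genes tested did (0.0%). DESeq2 called 1 member, *Ugt1a2* (FDR 0.0499), and 67 genes in all (0.468%). At an unadjusted p under 0.05 in edgeR there were 2 of 37 members (5.41%), both lower in mutants, against 6.36% of all genes (3.59% lower), so the share of members was near the background. The members were *Ugt1a2* and *Mgst3*, and DESeq2 had 2 members at that level as well (6.18% of all genes). No member separated the 4 controls from the 4 mutants without overlap in CPM, against 4.03% of all genes. The median log2 fold change (mutant over control) was -0.02 over the 37 members, 18 above 0 and 19 below, and -0.004 over all genes. By family it was -0.02 for GST, -0.12 for MGST, -0.17 for UGT and 0.05 for SULT.

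Over the 6 kidneys with Y-linked reads, *Ugt2b38* passed the adjusted threshold in edgeR (1 of 37 members, against 0.143% of 14719 genes tested). DESeq2 called 3 members there, *Ugt2b38*, *Mgst1* and *Ugt1a6b*, against 1.28% of genes. At an unadjusted p under 0.05 there were 13 of 37 members (35.1%), against 11.1% of all genes. Of these, 8 were higher in mutants (6.4% of all genes) and 5 were lower (4.74%). DESeq2 had 12 members at that level (8.77% of all genes), and the fit over 8 kidneys with a Y-linked covariate had 12 (12.1%). No mutant lacks Y-linked reads, so the covariate sets controls 3 and 4 apart. That fit largely repeats the 6-kidney comparison and is not separate evidence. In edgeR the 8 higher members were *Gsta3*, *Gstt1*, *Gsto1*, *Gstm6*, *Mgst1*, *Sult1c2*, *Sult1a1* and *Ugt1a1*, with log2 fold changes of 0.23 to 1.85. The 5 lower members were all UGT genes, *Ugt1a6b*, *Ugt3a1*, *Ugt3a2*, *Ugt2b37* and *Ugt2b38*, with log2 fold changes of -1.33 to -0.27. For 9 members all 4 mutants were above both controls (10.2% of all genes) and for 5 members all were below (11.5%), 14 in all (21.7% of all genes do not overlap). The median log2 fold change was 0.22 for GST, 0.32 for MGST, -0.27 for UGT and 0.23 for SULT, 0.15 over all members and 0.01 over all genes. The summed adipocyte markers of these kidneys did not overlap either (0 and 2.76 CPM against 90.9 to 147 CPM), and their part in the 13 differences was not tested. With 2 controls against 4 mutants an exact permutation test cannot give a p below 0.0667, and only adjusted p-values of the fit over all genes are used as calls.

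**Figure D2:**
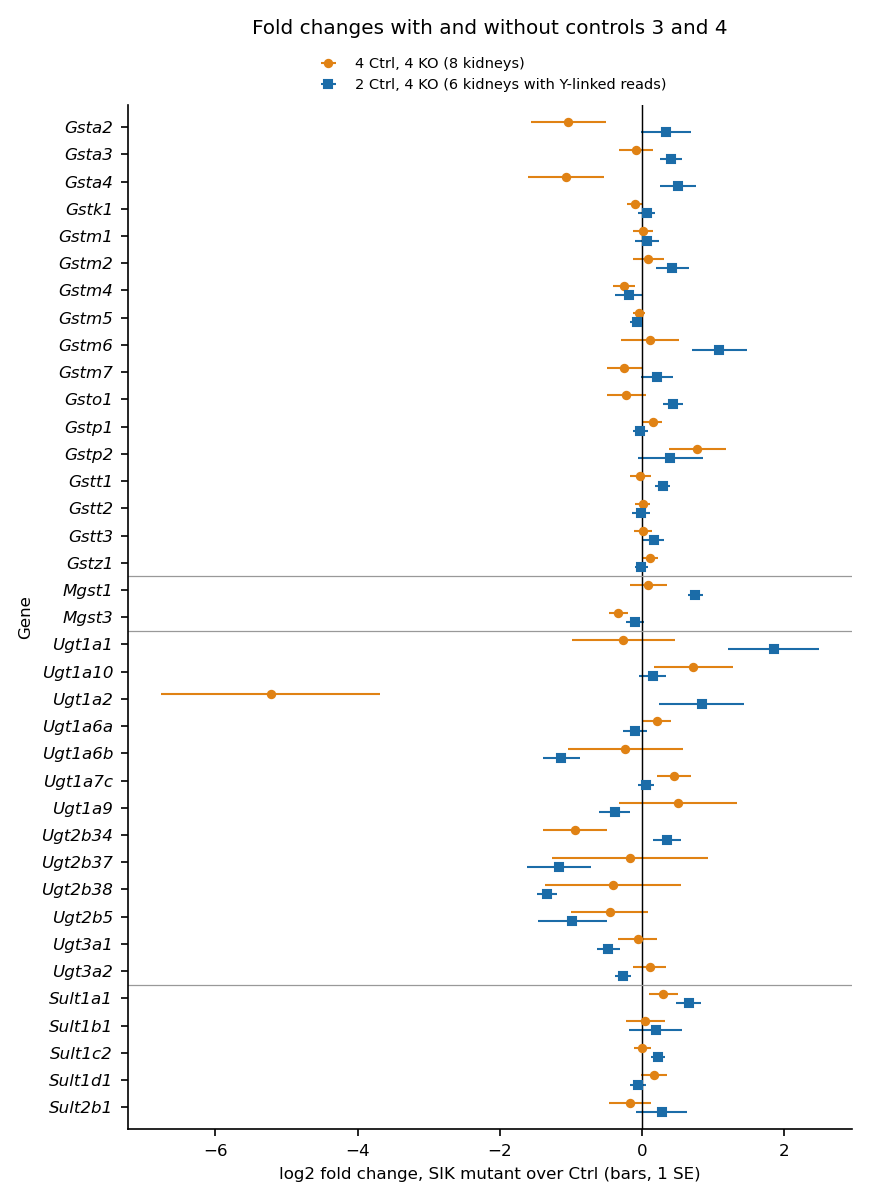
Log2 fold change of SIK mutant over control for each member, with bars of 1 standard error from the edgeR fit, over all 8 kidneys (orange circles) and over the 6 kidneys with Y-linked reads (blue squares). *Ugt1a2* moved from -5.22 to 0.84 between the comparisons, and *Ugt2b38* from -0.40 with a wide bar to -1.33 with a narrow one.

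The *Ugt2b* genes encode microsomal enzymes that glucuronidate steroids, bile acids and drugs. *Ugt2b38* (ENSMUSG00000061906, chromosome 5, 87409942 to 87424203, minus strand, GRCm38) was at 1046 and 886 CPM in controls 1 and 2, at 15.2 and 68.9 CPM in controls 3 and 4, and at 325, 412, 442 and 344 CPM in the mutants. The mutants thus lay between 2 sets of controls: every mutant was below controls 1 and 2 and above controls 3 and 4. Over the 6 kidneys *Ugt2b38* fell by 1.33 ± 0.14 on the log2 scale (SE, edgeR FDR 0.0118), which is a level 60.3% lower, or 2.52-fold. DESeq2 gave an FDR of 1.17e-16 for the same kidneys. Over all 8 kidneys the log2 fold change was -0.40 ± 0.96 (SE, FDR 0.966), and with the mean Y-linked level as a covariate it was -1.43 with an FDR of 0.201. The call also did not hold without control 1 (FDR 0.148), control 2 (FDR 0.0835) or mutant 2 (FDR 0.0545), with log2 fold changes of -1.44 to -1.21 over all single removals. The estimated posterior spread of its counts was 0.0232% of the count, although 52.9% of its 31-base words are also found in other genes, mostly *Ugt2b5*.

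Of 3 markers of the S3 segment, the last part of the proximal tubule, *Slc7a13* and *Atp11a* were lower in controls 3 and 4 than in controls 1 and 2, like *Ugt2b38*, and *Slc22a13* was higher (116 and 91.8 CPM in controls 1 and 2, 169 and 146 CPM in controls 3 and 4). The 3 markers summed to 2357 and 1650 CPM in controls 1 and 2, 584 and 495 CPM in controls 3 and 4, and 1533 to 1976 CPM in the mutants. *Slc7a13* itself was at 2.28 and 2.27 CPM in controls 3 and 4 and at 362 to 651 CPM elsewhere. Over the 6 kidneys the S3 sums of the mutants overlapped those of the controls. The summed proximal tubule markers did not overlap, at 11849 and 11604 CPM in controls 1 and 2 and 8634 to 10399 CPM in the mutants. Among them *Slc34a1* alone did not overlap, with a log2 fold change of -0.52 ± 0.13 (FDR 0.241 in edgeR and 0.00656 in DESeq2). *Lrp2*, *Cubn*, *Slc27a2* and *Hnf4a* each overlapped. Of the 5 markers, 3 had log2 fold changes above 0 and 2 below, with a median of 0.002. The part of these cell types in the level of *Ugt2b38* was not tested.

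*Ugt2b37* (chromosome 5, 87240493 to 87254804) was at 45.9 and 43.0 CPM in controls 1 and 2, at 0.176 and 0.437 CPM in controls 3 and 4, and at 10.2, 13.3, 15.1 and 40.6 CPM in the mutants. The order of the sets was that of *Ugt2b38*, with mutant 4 close to controls 1 and 2. The value in control 3 was under the level of 3 counts (0.264 CPM). Over the 6 kidneys its log2 fold change was -1.16 ± 0.45 (SE, edgeR FDR 0.404), which did not pass. *Ugt2b34* (chromosome 5, 86889767 to 86906937), in the same cluster, had the opposite order, at 13.8 and 15.1 CPM in controls 1 and 2, 55.7 and 55.1 CPM in controls 3 and 4, and 14.7 to 23.8 CPM in the mutants. Without controls 3 and 4, the mutants and controls of *Ugt2b34* overlapped (log2 fold change 0.35 ± 0.20, edgeR FDR 0.539). *Ugt2b5* was near the detection limit at 0.351 to 2.07 CPM in all kidneys.

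**Figure D3:**
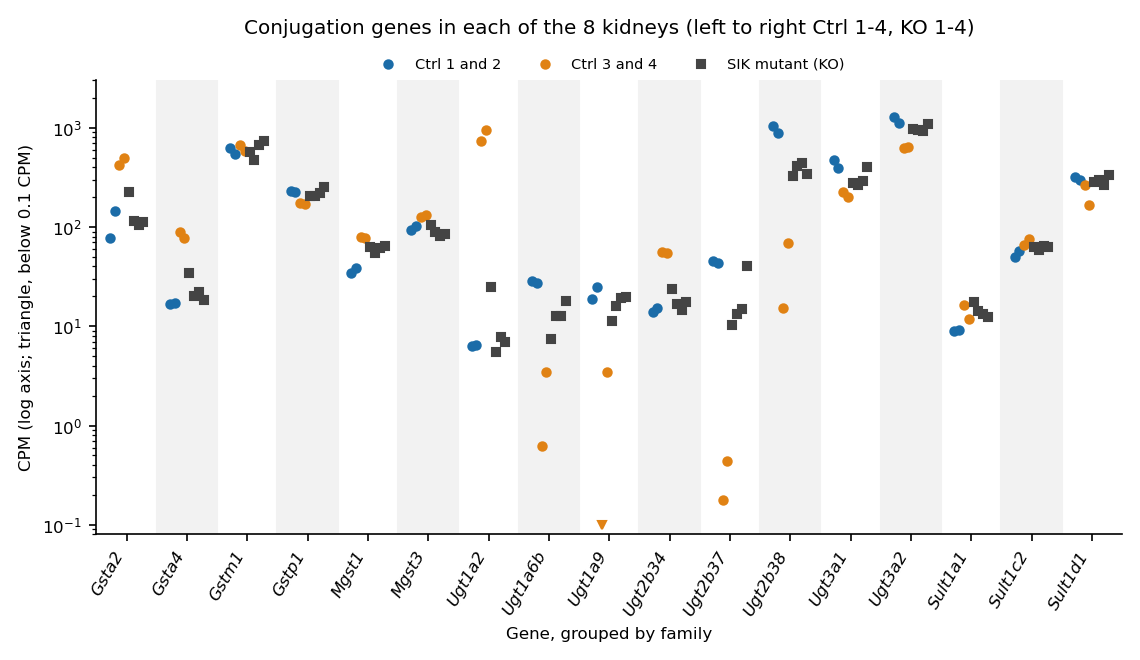
CPM on a log axis of 17 members in each kidney, in the order controls 1 to 4 and mutants 1 to 4 within each gene, with controls 1 and 2 in blue, controls 3 and 4 in orange and SIK mutants as dark squares. The triangle is *Ugt1a9* at 0 in control 3, drawn at 0.1. *Ugt2b38* mutants (325 to 442 CPM) lie between the blue and orange points, and *Mgst1* mutants (54.4 to 64.1 CPM) do too.

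The *Ugt1a* genes conjugate bilirubin, phenols and drugs, and they share the exons that encode the part of the enzyme binding the UDP-sugar. *Ugt1a2* (ENSMUSG00000090171, chromosome 1, 88200601 to 88218997, plus strand) was at 6.28 and 6.51 CPM in controls 1 and 2, 743 and 938 CPM in controls 3 and 4, and 24.8, 5.52, 7.83 and 7.01 CPM in the mutants. Its level was far higher in controls 3 and 4 than in any other kidney. The posterior spread of *Ugt1a2* was 1.26% of its mean count, but up to 37.8% of the count in a single kidney. The log2 fold change over 8 kidneys was -5.22 ± 1.55 (SE, edgeR unadjusted p = 0.00748 and FDR 0.592), and without controls 3 and 4 it was 0.84 ± 0.59 (FDR 0.636), of the opposite sign. The exact two-sided permutation p over the 8 kidneys was 0.343. The 8-kidney call of DESeq2 on *Ugt1a2* therefore rested on controls 3 and 4, and DESeq2 over the 6 kidneys gave an FDR of 0.923.

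Other *Ugt1a* genes were low in controls 3 and 4. *Ugt1a9* was at 18.6 and 24.9 CPM in controls 1 and 2, at 0 and 3.49 CPM in controls 3 and 4, and at 11.3, 15.8, 19.2 and 19.9 CPM in the mutants. *Ugt1a6b*, of the phenol-conjugating *Ugt1a6* pair, was at 28.4 and 27.5 CPM in controls 1 and 2, at 0.615 and 3.49 CPM in controls 3 and 4, and at 7.48, 12.5, 12.8 and 17.9 CPM in the mutants. Mutants lay below controls 1 and 2 for *Ugt1a6b* without overlap, whereas they overlapped them for *Ugt1a9*. The 6-kidney log2 fold change of *Ugt1a6b* was -1.13 ± 0.26 (SE), with an FDR of 0.195 in edgeR and 0.00388 in DESeq2. The 6-kidney change of *Ugt1a9* was -0.39 ± 0.22 (edgeR FDR 0.551). Much of the transcript sequence of these genes is shared: 84.2% of the 31-base words of *Ugt1a6b* and 67.8% of those of *Ugt1a9* occur in other genes. The share of reads affected was not measured. RSEM's posterior spread was 18.9% and 19.1% of their mean counts, and up to 80.1% and 26.0% of the count in a single kidney.

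Since reads of shared exons are divided by estimation, the counts of all *Ugt1a* genes were also summed. The sum was 472 and 531 CPM in controls 1 and 2, 926 and 1190 CPM in controls 3 and 4, and 535, 484, 557 and 465 CPM in the mutants. Its log2 fold change was -0.61 ± 0.27 (SE, edgeR FDR 0.778) over 8 kidneys and 0.04 ± 0.11 (FDR 0.924) over 6. *Ugt1a2* made up 80.2% and 78.8% of the sum in controls 3 and 4 and 1.14% to 4.64% in the other 6 kidneys. In those 6, *Ugt1a7c* made up 45.7% to 55.6% and *Ugt1a10* 26.8% to 39.2%. The ranges of the mutants and of controls 1 and 2 overlapped for all 3 shares. *Ugt1a1*, the bilirubin-conjugating gene, was a minor part at 0.297% to 2.17% of the sum in all 8 kidneys, at 1.72 and 1.58 CPM in controls 1 and 2, 9.05 and 15.8 CPM in controls 3 and 4, and 2.40 to 11.6 CPM in the mutants. It was thus higher in controls 3 and 4 than in controls 1 and 2, as *Ugt1a2* was, and its 6-kidney log2 fold change of 1.85 ± 0.64 did not pass (edgeR FDR 0.360). The posterior spread of *Ugt1a1* was 23.2% of its mean count and up to 84.1% of the count in a single kidney. Of its 31-base words 58.5% occur in other genes. *Ugt1a1* was named after its values were seen.

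**Figure D4:**
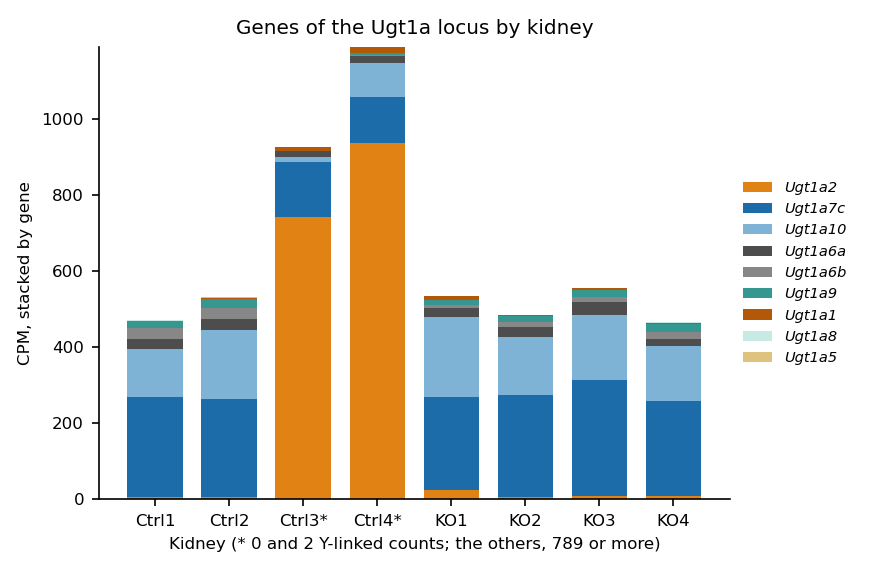
Stacked CPM of the genes of the *Ugt1a* locus in each kidney, with the bar height equal to their sum. *Ugt1a2* (orange) fills 80.2% and 78.8% of the bars of controls 3 and 4 (asterisks), and *Ugt1a7c* and *Ugt1a10* (blue) fill most of the bars of the other 6 kidneys.

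The *Ugt3a* genes, neighbours on chromosome 15, were abundant in every kidney. *Ugt3a2* (chromosome 15, 9335550 to 9370955) was at 1278 and 1103 CPM in controls 1 and 2, 624 and 646 CPM in controls 3 and 4, and 965, 947, 922 and 1094 CPM in the mutants. *Ugt3a1* (chromosome 15, 9276888 to 9315032) was at 468 and 397 CPM, 223 and 199 CPM, and 279, 265, 292 and 399 CPM in the same sets. Both genes had the order controls 1 and 2, mutants, controls 3 and 4, with mutant 4 reaching control 2 for *Ugt3a1*. The 6-kidney log2 fold changes were -0.27 ± 0.11 for *Ugt3a2* (edgeR FDR 0.422) and -0.48 ± 0.16 for *Ugt3a1* (FDR 0.360), and neither passed. Over 8 kidneys they were 0.11 ± 0.23 and -0.06 ± 0.27.

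MGST enzymes are glutathione-dependent enzymes of the endoplasmic reticulum and mitochondrial membranes that also reduce lipid hydroperoxides. *Mgst1* (ENSMUSG00000008540, chromosome 6, 138140316 to 138156755, plus strand) was at 34.7 and 38.5 CPM in controls 1 and 2, 80.0 and 76.6 CPM in controls 3 and 4, and 63.5, 54.4, 62.1 and 64.1 CPM in the mutants. The mutants again lay between the sets of controls, here with controls 3 and 4 on top. Over the 6 kidneys the log2 fold change was 0.75 ± 0.11 (SE), a level 68.0% higher, with an edgeR FDR of 0.0524, just over the threshold. DESeq2 on the same kidneys gave an FDR of 0.000125 and the Y-linked covariate over 8 kidneys an edgeR FDR of 0.0377 (1 member, against 0.105% of genes). As no mutant lacks Y-linked reads, the covariate fit largely repeats the 6-kidney comparison. Over 8 kidneys without the covariate the log2 fold change was 0.08 ± 0.26 (FDR 0.977), with an exact permutation p of 0.743. Beside this result, the summed adipocyte markers were 0 and 2.76 CPM in controls 1 and 2 and 90.9 to 147 CPM in the mutants, and their part in it was not tested. In controls 3 and 4 the same markers summed to 132 and 26.5 CPM.

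*Mgst3* (chromosome 1, 167371966 to 167393841) was at 92.3 and 102 CPM in controls 1 and 2, 126 and 132 CPM in controls 3 and 4, and 105, 88.0, 80.4 and 85.7 CPM in the mutants. It had the smallest p of the non-UGT members over 8 kidneys (log2 fold change -0.33 ± 0.14, unadjusted p = 0.0344, edgeR FDR 0.756), with mutant 1 inside the controls' range. Without controls 3 and 4 it was -0.10 ± 0.12 (FDR 0.789).

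The cytosolic GST enzymes detoxify electrophiles such as epoxides and lipid aldehydes. *Gstm1* (chromosome 3, 108012255 to 108017973) was at 628, 545, 665 and 577 CPM in controls and 565, 477, 662 and 736 CPM in mutants. *Gstp1* (chromosome 19, 4035407 to 4037985) was at 229, 226, 176 and 169 CPM in controls and 207, 206, 220 and 255 CPM in mutants. In CPM the groups overlapped for both genes. The log2 fold changes were 0.01 ± 0.14 and 0.15 ± 0.13 over 8 kidneys and 0.07 ± 0.17 and -0.03 ± 0.11 over 6. *Gstp2*, a near copy of *Gstp1*, had a posterior spread of 117% of its count and is uncertain as a separate gene. The sum of both was 171 to 232 CPM in controls and 210 to 257 CPM in mutants (log2 fold change 0.16 ± 0.13, edgeR FDR 0.893). In TPM the sum did not overlap, at 345.45 to 423.5 in controls and 458.7 to 495.5 in mutants. The exact permutation p of that TPM sum was 0.0286, the smallest possible, and the sum was chosen after its values were seen. On the TPM scale the median log2 fold change over all genes tested was 0.088 (limma-trend).

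The alpha-class genes were the uneven ones of the GST family. *Gsta2* (chromosome 9, 78331018 to 78355788) was at 77.4 and 144 CPM in controls 1 and 2, 423 and 492 CPM in controls 3 and 4, and 224, 115, 104 and 112 CPM in the mutants. *Gsta4* (chromosome 9, 78182774 to 78209349), whose enzyme is known for conjugating lipid aldehydes, was at 16.7 and 17.1 CPM, 88.3 and 77.4 CPM, and 34.4, 19.9, 22.2 and 18.4 CPM in the same sets. In both genes controls 3 and 4 were above every other kidney and mutant 1 was the highest of the rest. The 8-kidney log2 fold changes of -1.04 ± 0.53 and -1.07 ± 0.54 (edgeR FDR 0.794 for both) turned to 0.33 ± 0.35 and 0.51 ± 0.25 over 6 kidneys (FDR 0.752 and 0.495). *Gsta2* shares 60.7% of its 31-base words with other genes, mostly *Gsta1*.

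The remaining GST members (*Gsta3*, *Gstk1*, *Gstm2*, *Gstm4*, *Gstm5*, *Gstm6*, *Gstm7*, *Gsto1*, *Gstp2*, *Gstt1*, *Gstt2*, *Gstt3* and *Gstz1*) had log2 fold changes of -0.25 to 0.78 over 8 kidneys and -0.18 to 1.09 over 6, with an edgeR FDR of 0.339 or more in the latter. Over 6 kidneys the 4 with an unadjusted p under 0.05, chosen here after their values were seen, were *Gsta3* (0.41 ± 0.16), *Gstt1* (0.29 ± 0.11), *Gsto1* (0.44 ± 0.14) and *Gstm6* (1.09 ± 0.38), each with the mutants above controls 1 and 2 and with edgeR FDR of 0.339 to 0.404. *Gsto1*, of the omega class that reduces dehydroascorbate, was at 41.7 and 51.6 CPM in controls 1 and 2, 107 and 92.2 CPM in controls 3 and 4, and 54.1 to 72.0 CPM in the mutants. *Gstz1*, which acts in tyrosine breakdown, differed little among kidneys (212 to 294 CPM in controls, 262 to 304 CPM in mutants).

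The SULT enzymes transfer sulfate to phenols, steroids and amines. *Sult1d1* (chromosome 5, 87554645 to 87569027) was at 319, 299, 263 and 168 CPM in controls and 284, 300.0, 264 and 331 CPM in mutants. *Sult1c2* (chromosome 17, 53829637 to 53846339) was at 50.3, 57.1, 65.6 and 75.5 CPM in controls and 63.2, 58.4, 64.9 and 62.9 CPM in mutants. The groups overlapped for both, with log2 fold changes of 0.17 ± 0.18 and 0.00 ± 0.12 over 8 kidneys. *Sult1a1* (chromosome 7, 126672865 to 126676432), the main phenol sulfotransferase, was at 9.02 and 9.27 CPM in controls 1 and 2, 16.3 and 11.96 CPM in controls 3 and 4, and 17.5, 14.2, 13.1 and 12.4 CPM in the mutants. Every mutant was above controls 1 and 2, by 0.66 ± 0.18 on the log2 scale (edgeR FDR 0.276), and over 8 kidneys the groups overlapped (0.30 ± 0.20, FDR 0.853). *Sult1b1* and *Sult2b1* were at 1.01 to 3.65 CPM in all kidneys.

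Controls 3 and 4 were both outside the range of the other 6 kidneys for 26 of the 37 members (70.3%), against 23.8% of all genes tested. They were above for 13 members (10.7% of all genes) and below for 13 (13.1%). By family this held for 10 of 17 GST, 2 of 2 MGST, 11 of 13 UGT and 3 of 5 SULT genes. Of the UGT genes 9 were below and 2 above (*Ugt1a2* and *Ugt2b34*), and of the GST genes 7 were above and 3 below. These kidneys are not a group of the study, so the counts are a description. The widest gaps on the log2 scale to the nearest other kidney were those of *Ugt1a2* (4.89), *Ugt2b37* (3.93), *Ugt2b38* (2.23) and *Ugt1a9* (1.62).

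Genes that supply or regulate conjugation were read from lists with the same fits. Of 12 genes that supply cofactors, 0 passed the FDR of edgeR in either comparison. Over 8 kidneys 2 had an unadjusted p under 0.05 upward and 1 downward (2.76% and 3.59% of all genes), and over 6 kidneys 2 and 1 (6.4% and 4.74%). *Gsr*, glutathione reductase, was at 144, 133, 83.4 and 102 CPM in controls and 163, 159, 162 and 167 CPM in mutants, without overlap (log2 fold change 0.49 ± 0.16, FDR 0.678, and 0.24 ± 0.08, FDR 0.362, over 6 kidneys). *Ugdh*, which makes UDP-glucuronic acid, was 0.25 ± 0.09 (FDR 0.715) with overlapping groups. *Slc35d1*, which carries UDP-glucuronic acid into the endoplasmic reticulum, was at 37.3 to 44.5 CPM in controls and 30.6 to 36.9 CPM in mutants (-0.26 ± 0.10, FDR 0.722). *Gclc*, the rate-limiting enzyme of glutathione synthesis, was at 180 to 276 CPM in controls and 181 to 239 CPM in mutants. *Papss2*, which makes PAPS, was at 179 to 361 and 215 to 289 CPM, and *Nfe2l2*, which encodes the antioxidant factor NRF2, at 69.3 to 87.4 and 66.7 to 90.1 CPM, both with overlap.

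Of 9 genes for NRF2 and xenobiotic-sensing factors, 0 passed the FDR of edgeR in either comparison, and 0 had an unadjusted p under 0.05 over 8 kidneys. Of 7 tested NRF2 target enzymes outside these families, 2 were higher at an unadjusted p under 0.05 in both comparisons, *Nqo1* and *Akr1b8* (2.76% of all genes over 8 kidneys, 6.4% over 6), and *Nqo1* passed the edgeR FDR over 6 kidneys. *Nqo1*, a quinone reductase and a classical NRF2 target, was at 31.2, 31.6, 35.8 and 22.7 CPM in controls and 51.8, 53.9, 50.6 and 52.2 CPM in mutants, with no overlap (exact permutation p = 0.0286, the smallest possible). Controls 3 and 4 did not stand apart from controls 1 and 2 for this gene. The log2 fold change was 0.78 ± 0.13 (edgeR FDR 0.124, DESeq2 FDR 6.57e-05) over 8 kidneys and 0.74 ± 0.09 (edgeR FDR 0.0227) over 6, a level 67.3% higher. With the Y-linked covariate over 8 kidneys the edgeR FDR was 0.146. *Akr1b8* was at 2.07 to 4.10 CPM in controls and 3.75 to 5.43 CPM in mutants, with overlap. The adipocyte markers given above were also higher in mutants than in controls 1, 2 and 4, and their part in *Nqo1* was not tested.

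Of 11 tested conjugation enzymes of other families, 0 passed the FDR in edgeR, and over 8 kidneys only *Gnmt*, a glycine methyltransferase, had an unadjusted p under 0.05 (0.23 ± 0.09, FDR 0.742, no overlap, against 2.76% of all genes higher at that level). Over 6 kidneys *Hnmt* and *Gnmt* were higher and *Inmt*, *Nat8* and *Acsm2* lower at that level (6.4% and 4.74% of all genes). *Acsm2*, which activates acids for glycine conjugation, was at 4126 and 3382 CPM in controls 1 and 2, 1022 and 1066 CPM in controls 3 and 4, and 2209 to 3336 CPM in the mutants, in the order found for *Ugt2b38* and *Ugt3a2*. *As3mt*, the arsenic methyltransferase, did not overlap between the 8 kidneys (36.6 to 39.3 CPM in controls, 32.7 to 36.5 CPM in mutants, FDR 0.794). Of 4 tested deconjugating enzymes 0 passed in edgeR, with *Arsa* lower over 8 kidneys (-0.32 ± 0.12, FDR 0.722) and *Gusb*, which removes glucuronic acid, lower over 6 (-0.46 ± 0.10, FDR 0.191), against 3.59% and 4.74% of all genes lower at an unadjusted p under 0.05. Of 6 efflux pumps for conjugates 0 passed in edgeR, and DESeq2 over the 6 kidneys called *Abcc4* (log2 fold change 0.99, FDR 0.0406). *Abcc3* resembled *Ugt1a2*, at 1.52 and 1.97 CPM in controls 1 and 2, 71.2 and 118 CPM in controls 3 and 4, and 2.67 to 4.35 CPM in the mutants, and its log2 fold change turned from -3.68 ± 1.19 over 8 kidneys (edgeR FDR 0.688) to 1.12 ± 0.32 over 6. Over 6 kidneys *Abcc1*, *Abcc3* and *Abcc4* were higher at an unadjusted p under 0.05, with edgeR FDR of 0.287 to 0.390, against 6.4% of all genes higher at that level.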

How the data were processed

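Whole-kidney RNA from 4 control and 4 SIK mutant mice was sequenced on a BGISEQ500 instrument, and the sample titles and genotypes gave the groups and replicate numbers. The submitters' processing notes name FastQC, STAR 2.7.2b, RSEM 1.3.0, DESeq2 and the build mm10 (GRCm38). The use of strand is not given in the sources used here. Per the file headers, the authors deposited RSEM expected counts, which are estimated reads for each gene, are not normalized and divide shared reads among genes. The TPM values deposited by the authors are scaled to transcript length and library total. The posterior standard deviation of each count, a score deposited by the authors, was used to show where reads are shared among near copies.

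Gene IDs without version were matched to GENCODE M21 (55141 of 55401), and promoter sequences are RefSeq's (GRCm38.p6), matched by symbol for 33 of 37 members. Expected counts were rounded and tested in R 4.3.3 with edgeR 4.0.16 (quasi-likelihood), with TMM factors, the filterByExpr filter, no covariate and no block, as the study uses unpaired tests of 2 groups, with Benjamini-Hochberg adjustment over all genes tested (14326 over 8 kidneys, 14719 over 6). An FDR under 0.05 was a call. CPM are scaled with the TMM factors, and fold changes are edgeR's. Exact permutation tests were two-sided over all 70 assignments of 8 kidneys (15 of 6). The scripts were tested on simulated data. A level of 3 counts was 0.262 to 0.304 CPM, and floors and errors cover counting and the spread among these kidneys only. Alternatives were RLE factors, DESeq2 1.42.0, limma 3.58.1 (voom, and trend on log2(TPM + 1)), no filter, edgeR with legacy off, the replicate number as a block, the Y-linked covariate, 6 kidneys and the removal of each kidney. Summing *Ugt1a* genes and *Gstp1* with *Gstp2*, and leaving out single kidneys among the 6, were chosen after seeing the data.

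The members and gene lists were chosen with earlier results of these data known. Values by kidney were given for the 3 members of each family with the highest mean TPM, members with an unadjusted p under 0.05 over 8 kidneys, members without overlap, and the 8 members with the widest gap between controls 3 and 4 and the nearest other kidney, 17 members in all. Pathway genes were named at an unadjusted p under 0.05 or without overlap, and *Gclc*, *Ugdh*, *Papss2* and *Nfe2l2* always, except some that are not reported here. No replicate pair was a duplicate (chi-square per degree of freedom 9.06 to 49.5 over 12 pairs within groups).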

Additional observations from a re-analysis of the deposited data

Results flagged for a closer look

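Dixon's criterion for a single kidney far from the others was applied to 34 groups of 4 kidneys (17 members in each group). Of these, 3 were past it, all in the mutants. At 1 in 20, 1.7 would be expected by chance if every group were equally open to a call. They were not, since 8 of the 17 members were chosen for a wide gap between controls 3 and 4 and the other kidneys. Controls 1 and 2 lie apart from controls 3 and 4 there, which leaves little room for a single far control. The count of 3 is therefore not read against chance. *Gsta2* was at 223.7 CPM in mutant 1 and at 104 to 115 CPM in mutants 2 to 4 (gap over range 0.905). *Ugt1a2* was at 24.83 CPM in mutant 1 and 5.52 to 7.83 CPM in the rest of that group (0.880). *Ugt2b37* was at 40.63 CPM in mutant 4 and 10.2 to 15.1 CPM in mutants 1 to 3 (0.84). Mutant 1 and mutant 4 were also the mutants with the most erythroid marker reads (*Hba-a1* and *Hbb-bs*, 1803 and 1557 CPM, against 427 and 530 CPM in the others), and a part of that in these values was not tested.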

How the results depend on the processing

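Over 8 kidneys the count of members past an FDR of 0.05 was 0 in edgeR and under RLE factors, no filter, legacy off, the block, both limma fits and every single removal. It was 1 with DESeq2, 1 with the Y-linked covariate, 1 over 6 kidneys, 3 over 6 kidneys with DESeq2, and 1 over 6 kidneys with *Ugt1a* and *Gstp1* and *Gstp2* summed. The count at an unadjusted p under 0.05 was 1 with limma-voom, 5 with limma-trend on TPM, 5 with no filter, 13 over 6 kidneys, 12 there with DESeq2, 12 with the covariate, 11 over 6 kidneys with summed genes and 1 to 7 without single kidneys. The median log2 fold change of GST was 0.22 over 6 kidneys, 0.21 there with DESeq2, 0.21 with the covariate and 0.19 with summed genes; that of MGST was 0.32 in all of these. That of UGT was 0.38 with limma-trend and -0.23 to 0.28 without single kidneys. *Ugt2b38* over 6 kidneys was -1.43 with the covariate and -1.44 to -1.21 without single kidneys, losing its call without control 1, control 2 or mutant 2, where a lone control is assumed to vary like the mutants; *Mgst1* was 0.75 with DESeq2 and 0.76 with the covariate, both calls. The cause of these shifts was not tested.

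Directions turned for members under 3 related settings, the 6 kidneys, the 6 kidneys with DESeq2 and the covariate. In that order log2 fold changes were 0.33, 0.33 and 0.35 for *Gsta2*, 0.51, 0.50 and 0.53 for *Gsta4*, -0.026, -0.028 and -0.036 for *Gstp1*, -0.057, -0.059 and -0.061 for *Sult1d1*, 0.84, 0.83 and 0.90 for *Ugt1a2*, -0.39, -0.39 and -0.45 for *Ugt1a9*, 0.35, 0.35 and 0.36 for *Ugt2b34* and -0.27, -0.27 and -0.29 for *Ugt3a2*. With limma-voom, limma-trend and the replicate block they were 1.001, 0.53 and 0.48 for *Ugt1a6b*, 2.33, 1.12 and 0.88 for *Ugt2b37*, 1.07, 1.17 and 0.91 for *Ugt2b38*, and 0.011, 0.17 and 0.012 for *Ugt3a1*, and the block gave -0.00055 for *Gstm1*. Without single kidneys they ranged from -0.089 to 0.12 for *Gstm1*, -0.094 to 0.29 for *Mgst1*, -0.085 to 0.11 for *Sult1c2*, -0.64 to 0.28 for *Ugt1a6b*, -0.79 to 0.46 for *Ugt2b37*, -0.81 to 0.23 for *Ugt2b38*, -0.23 to 0.18 for *Ugt3a1* and -0.038 to 0.31 for *Ugt3a2*. Of these values none passed the FDR.

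The labels do not say whether the replicate numbers pair the kidneys. Deviations of same-numbered kidneys from their group means correlated at -0.16, 0.05, 0.04 and -0.29. Controls 2 and 3 correlated best with the mutant of their own number, and controls 1 and 4 with mutants 4 and 1. The controls' deviations hold the split between controls 1 and 2 and controls 3 and 4, which the mutants lack. These correlations therefore cannot tell whether kidneys were paired. With the replicate block 1 member had an unadjusted p under 0.05, 657 genes did in all, and 0 passed the FDR. The 6-kidney comparison rests on 2 controls, and no mutant lacks Y-linked reads, so genotypes could not be compared among kidneys like controls 3 and 4.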
